A study of Mus musculus with 4 samples.

Results

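The heat shock chaperone genes examined here were 10 genes named by symbol: Hsp90aa1, Hsp90ab1, Stip1, Hspa8, Hspa1a, Hspa1b, Hsph1, Dnajb1, Hspd1 and Hsf1. The members and the other gene lists below were chosen by name, with earlier results of these data known. All 10 members were found among the 32285 genes counted. They were measured in non-tumor liver of male mice by sequencing the RNA of single nuclei, each caught in a droplet with its own barcode. All mice, of both genotypes, had been given the carcinogen diethylnitrosamine (DEN) when 14 days old, in a dose of 25 mg/kg, and were 12 months old when their livers were taken. The 4 libraries fell into 2 groups of 2 by genotype label, Brca1-WT and Brca1-KO. Libraries of a group are marked as biological replicates, with no word on litter or cage, and p-values measure only the spread between these samples. Neither the promoter or Cre behind the deletion of Brca1, a DNA repair gene, nor the part deleted is given in the sources used here; the title calls the gene hepatic.

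Heat shock proteins are chaperones that keep other proteins folded. HSF1, the heat shock transcription factor, is held inactive until unfolded protein accumulates, and then binds heat shock elements, which are repeats of the unit GAA and its reverse complement TTC, to switch on chaperone genes. In the HSP70 cycle, a J-domain protein such as Dnajb1 delivers a client and an HSP110 protein such as Hsph1 exchanges the nucleotide, and Stip1 hands the client on to HSP90. Hspa8 and Hsp90ab1 are the constitutive forms in most cells, liver included, while Hspa1a and Hspa1b are nearly silent without stress.

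Promoter sequence was at hand for 6 of the 10 members in the RefSeq table (build GRCm38.p6), which runs from 250 bases before to 50 bases after each start. Stretches for Hsph1, Hspd1 and Hspa1b are shown because they hold the heat shock units, which stand in capitals. Hspa1a is identical to Hspa1b over the 100 bases printed and over 296 of the 300 bases of the window (98.7%). Each is written 5′ to 3′ on the gene's strand.
Hsph1, chr5:149636286-149636375, minus strand: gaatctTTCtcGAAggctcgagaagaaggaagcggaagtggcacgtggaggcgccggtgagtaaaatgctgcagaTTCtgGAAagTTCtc
Hspd1, chr1:55088033-55088102, minus strand: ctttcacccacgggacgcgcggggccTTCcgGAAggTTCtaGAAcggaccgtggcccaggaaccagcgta
Hspa1b, chr17:34959289-34959388, minus strand: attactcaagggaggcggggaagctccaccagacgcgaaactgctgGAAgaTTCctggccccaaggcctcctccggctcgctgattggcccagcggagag

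The Hsph1 stretch holds 3 alternating units from base 16 to base 28 after its second listed start, and a separate pair from base -54 to base -47. The Hspd1 stretch holds 4 units, from base -144 to base -127, and the same bases lie in the window of Hspe1, the co-chaperonin gene transcribed in the other direction. A pair of units facing each other, GAANNTTC or TTCNNGAA, reads the same on both strands. At least 1 GAANNTTC stood in the windows of 4 of the 6 members (Hspa1a, Hspa1b, Hspd1 and Hsph1) and in those of 9.04% of all 27025 genes with a window of that length. TTCNNGAA stood in those of Hspd1 and Hsph1 and of 9.6% of all genes. Runs of 3 alternating units, which overlap both motifs, were found in the same pair of genes and in 0.662% of all genes. A match describes these letters and shows no binding.

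The 4 libraries held 36662067 to 45638888 UMIs (unique molecular identifiers, each standing for 1 captured transcript) over 5209 to 7833 barcodes, and 4795 to 6970 nuclei were kept in each. Nuclei were clustered without the 10 members and a wider list of 55 chaperone genes, and 6 classes named from markers held at least 30 nuclei in every library. Levels below are CPM, the UMIs of a gene per 1000000 UMIs of that library and class. Brca1 itself, the check of the labels, stood in hepatocyte-like nuclei at 13.1 and 12.3 CPM under the Brca1-WT label and at 18.6 and 5.78 in replicates 1 and 2 labelled Brca1-KO. The part deleted may lie outside the 3′ ends counted, in which case this level checks nothing. The first of these values lies above both Brca1-WT libraries, against its label, so that group is called the libraries labelled Brca1-KO throughout. The second stands apart in another way: 10.1% of its hepatocyte-like nuclei fell in the hepatocyte-like clusters that held at least 25 nuclei of every library, against 98.1% to 99.9% in the other 3. Pairs of libraries shared 8 to 17 cell barcodes, at most 0.292% of the smaller library.

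In hepatocyte-like nuclei, 9 of the 10 members were higher in both libraries labelled Brca1-KO than in both Brca1-WT libraries, with Hsf1 as the exception. The ratio of the group means was 2.15 for Hsp90aa1, 1.99 for Hsp90ab1, 2.04 for Stip1 and 3.46 for Hsph1, against 1.23 for Hspa8 and 1.22 for Hspd1. None passed the test across all genes. Among the 15047 genes tested in this class, 11.9% had both libraries labelled Brca1-KO above both Brca1-WT libraries, and 8 of the 9 members tested did. As the members were chosen with earlier results of these data known, this count is not an independent test.

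Hsp90aa1, the stress-responsive cytosolic HSP90, stood at 34.4 and 39.2 CPM in the Brca1-WT libraries against 63.7 and 94.8 under the Brca1-KO label. The group means were 36.8 ± 3.46 and 79.3 ± 21.99 (SD, n = 2 each). The groups did not overlap, and edgeR fitted a log2 fold change of 1.16 ± 0.27 (SE, adjusted p = 0.995). Hsp90ab1, the constitutive HSP90, stood at 93.5 and 136.9 against 185.3 and 273.3 CPM, again without overlap, with a log2 fold change of 1.05 ± 0.319 (SE). Stip1, which links HSP70 to HSP90, had 38.7 and 62.2 CPM in the Brca1-WT libraries against 83.6 and 122.0 under the Brca1-KO label. Its log2 fold change was 1.08 ± 0.333. For all 3 genes the second library labelled Brca1-KO was the highest and the first Brca1-WT library the lowest. Of all genes tested in this class, 23.3% were highest in the former and 21.6% lowest in the latter.

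Among the HSP70 machinery, the nucleotide exchange factor Hsph1 showed the widest spread between libraries relative to its mean apart from the near-silent inducible pair. It stood at 23.4 and 45.5 CPM in the Brca1-WT libraries against 76.9 and 161.8 under the Brca1-KO label. The group means of Hsph1 were 34.5 ± 15.6 and 119.4 ± 60.1 (SD, n = 2 each), and the log2 fold change was 1.85 ± 0.507 (SE). The difference in means exceeded the SD within either group, while the 2 libraries labelled Brca1-KO themselves differed by more than the 2 Brca1-WT libraries did. Hspa1b, a stress-inducible HSP70, was counted at 11 and 29 UMIs in the Brca1-WT libraries against 58 and 313 under the Brca1-KO label, or 0.391, 0.985, 1.99 and 8.07 CPM. Most of its UMIs thus came from a single library, and its log2 fold change of 2.93 ± 0.862 was 1.53 without that library. Its near-identical neighbour Hspa1a had 1, 0, 2 and 12 UMIs in the same order, and reads of the pair may have been split between them or dropped.

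Hspa8, the constitutive HSP70, was at 69.0 and 93.8 against 103.0 and 98.0 CPM. Its group means, 81.4 and 100.5, lay closer together than its 2 Brca1-WT libraries did, and its log2 fold change was 0.35 ± 0.211. Dnajb1, the J-domain partner, had 2.42 and 3.84 CPM in the Brca1-WT libraries against 5.38 and 4.51 under the Brca1-KO label. Hspd1, the mitochondrial chaperonin, had 70.3 and 81.8 against 86.3 and 99.0 CPM, a log2 fold change of 0.33 ± 0.194. Hsf1 stood at 25.0 and 27.3 against 28.8 and 23.5 CPM. Its groups overlapped, and both means were 26.2. A transcript level says nothing of the activity of the HSF1 protein.

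**Figure D1:**
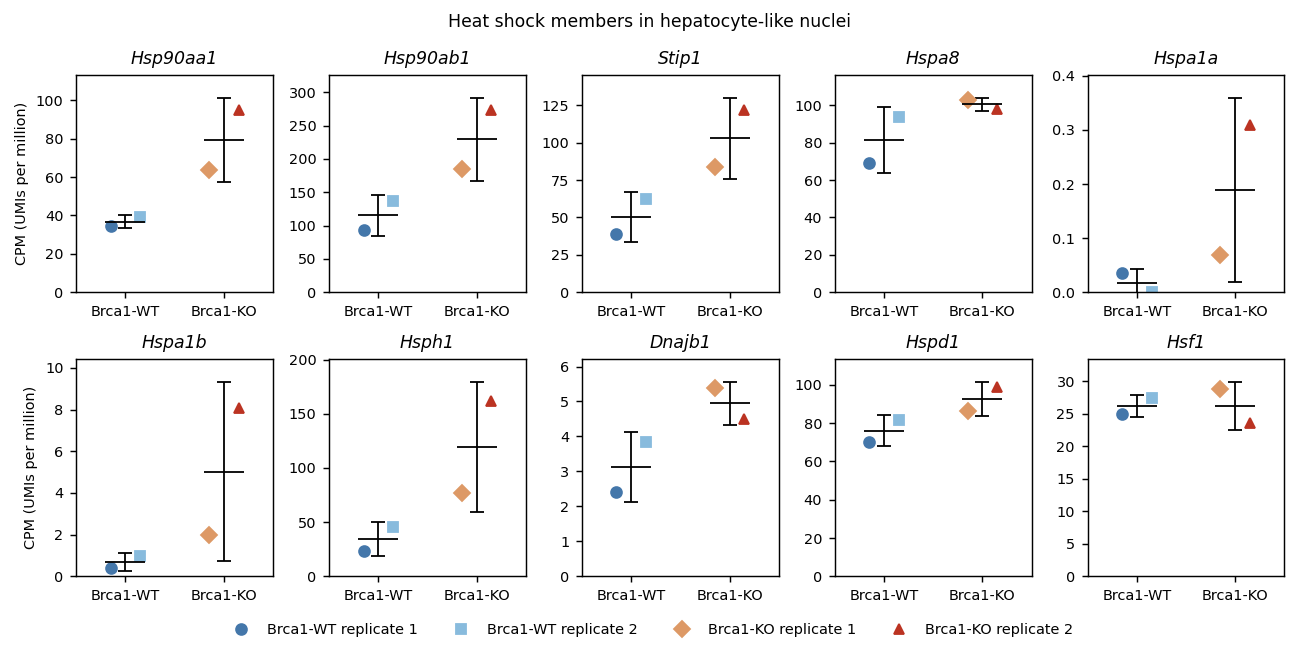
Level of each of the 10 members in hepatocyte-like nuclei (y axis, CPM, each panel from 0) in the 2 Brca1-WT libraries and the 2 labelled Brca1-KO (points); horizontal dashes and bars are the mean and SD of each group. In 9 panels both points labelled Brca1-KO lie above both Brca1-WT points; in that of Hsf1 the groups overlap, with means of 26.2 in each.

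By edgeR's quasi-likelihood test with Benjamini-Hochberg adjustment over 15047 genes, 0 of the 9 members that passed the filter on low counts were called (Hspa1a did not pass it), and 0.0% of all genes were. Adjusted p was 0.996 for Hsf1 and 0.995 for the other 8. At an unadjusted p below 0.05, 5 of the 9 were higher (Hsp90aa1, Hsp90ab1, Hsph1, Hspa1b and Stip1), against 154 of all genes (1.02%). DESeq2 called 0 members. Their median log2 fold change was 1.04, against -0.006 over all genes tested. In hepatocyte-like nuclei, leaving out the second library labelled Brca1-KO took the log2 fold change of Hsph1 from 1.85 to 1.16, of Hsp90ab1 to 0.69, of Stip1 to 0.74 and of Hsp90aa1 to 0.80. All 4 remained higher in the first library labelled Brca1-KO than in both Brca1-WT libraries. In the sum of all nuclei, in which fewer cells of a type and less RNA per cell cannot be told apart, 9 of the 10 members had both libraries labelled Brca1-KO highest (8 of the 9 tested), where 9.44% of 17145 genes had such an order and 0.0% were called. There the fit without the first library labelled Brca1-KO called Hsp90aa1 (log2 fold change 1.52, edgeR adjusted p = 0.0343) and Hspa1b (3.61, adjusted p = 0.0385), beside 1.5% of all genes. That fit has a single library on 1 side, which is assumed to vary like the others.

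Hepatocyte-like nuclei comprised several clusters, and 4 of them held at least 25 nuclei of every library. Within each of the 4, Hsph1, Hsp90ab1, Hsp90aa1 and Stip1 were higher in both libraries labelled Brca1-KO than in both Brca1-WT libraries. The share of all genes with that order within a cluster was not counted. Hsp90aa1 of the second library labelled Brca1-KO rested on 14 UMIs in cluster 3 and 18 in cluster 5. In cluster 5 it stood there at 65.1 CPM, against 69.7 in the first library labelled Brca1-KO. Cluster 5 was led by Sds, Hal and Cyp2f2, genes of hepatocytes near the portal vein. Hsph1 stood there at 23.1, 45.0, 82.7 and 202.6 CPM, in the order Brca1-WT replicates 1 and 2, then replicates 1 and 2 labelled Brca1-KO. Cluster 3 was led by Cyp2c69, Slc1a2 and Glul, of which Glul marks hepatocytes around the central vein. Hsph1 stood there at 24.0, 47.8, 63.0 and 132.9 in the same order, so it differed less between these clusters than between the libraries. The last values of these 2 lists rest on 56 and 26 UMIs from 49 and 29 nuclei. Cluster 4, which was led by mitochondrially encoded genes, gave 29.1, 51.7, 75.2 and 168.5 for Hsph1. Hspa8 followed the same order in 3 of the 4 clusters and Hsf1 in 0. With UMIs summed over the 4 clusters alone, the log2 fold change of Hsph1 was 1.85 and that of Hsp90aa1 was 1.23, against 1.85 and 1.16 in the whole class. These sums were not matched in cluster makeup. Cluster 4 gave 282 of the 415 nuclei of the second library labelled Brca1-KO and 73 of 2571 of the first. It gave 138 of 2595 and 388 of 3924 in Brca1-WT replicates 1 and 2.

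**Figure D2:**
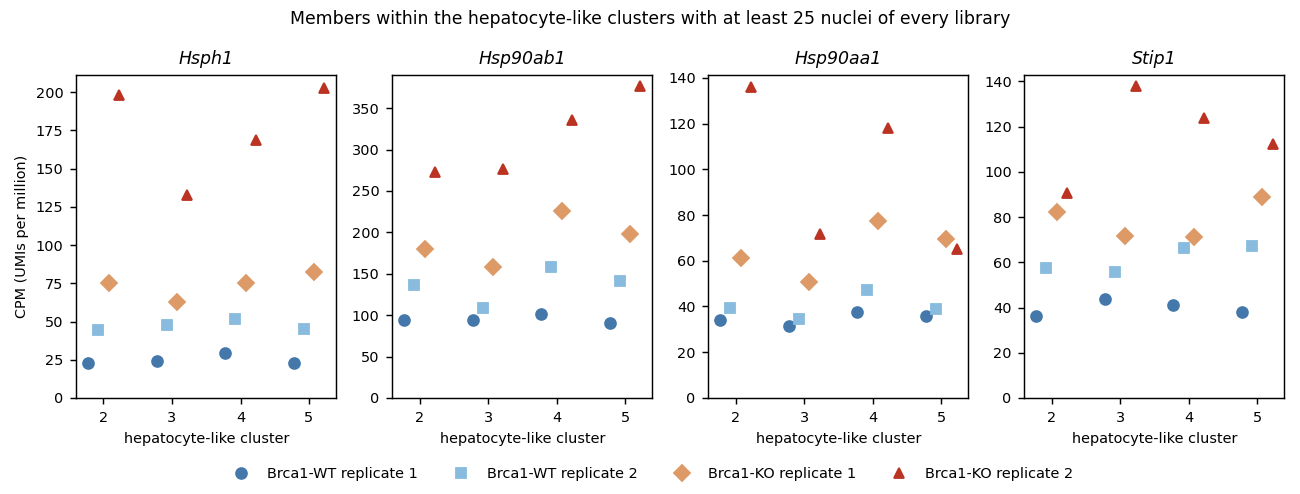
Levels of Hsph1, Hsp90ab1, Hsp90aa1 and Stip1 (y axis, CPM) in the 4 hepatocyte-like clusters (x axis, cluster number) with at least 25 nuclei of every library; each point is 1 library. In every cluster and panel the 2 points labelled Brca1-KO lie above the 2 Brca1-WT points, for Hsph1 in cluster 5 at 82.7 and 202.6 against 23.1 and 45.0. The share of all genes with that order in these clusters was not counted.

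Within a library, counts of the members per hepatocyte-like nucleus varied about as much as counting alone gives. With each nucleus thinned to 1000 UMIs, the variance divided by the mean of the UMIs per nucleus ran from 0.97 to 1.11 over the 29 pairs of member and library with at least 20 UMIs (median 1.02), where pure counting gives 1. For Hsp90ab1 in the first Brca1-WT library, 10.1% of nuclei held a UMI and counting at the mean would give 10.2%. The largest excess, 1.11, was that of Hsp90ab1 in the second library labelled Brca1-KO. There 25.4% of nuclei held a UMI, and counting would give 26.8%. The means were 0.00663 to 0.312 UMIs per nucleus, where moderate differences between nuclei barely move this ratio, so an even spread is not shown. Hspa1a and Dnajb1 had too few UMIs to be among the pairs, and Hspa1b entered from the second library labelled Brca1-KO alone. At this depth, a small group of strongly induced nuclei was not detectable from these values.

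Hsph1, Hsp90ab1 and Stip1 were highest in the second library labelled Brca1-KO in every class tested, outside hepatocytes as in them. So was Hspa1b, but from 1 to 5 UMIs of that library in each class outside hepatocytes. That library was also the highest for 20.1% (B-like) to 28.4% (endothelial-like) of all genes tested in these classes. In B-like nuclei Hsph1 and Stip1 were not tested, and only their levels had that order. Hsf1, the transcription factor, showed no such common order. Both libraries labelled Brca1-KO did lie above both Brca1-WT libraries for Hsf1 in macrophage-like, T or NK-like and B-like nuclei. Outside hepatocytes, Hsp90ab1 had that order of groups in macrophage-like and B-like nuclei alone among the classes tested. The labels give no date or batch of preparation, so preparation and genotype cannot be told apart. No member passed the test in any class with edgeR, and DESeq2 called 0 as well.

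In endothelial-like nuclei, Hsph1 stood at 16.1 and 16.9 CPM in the Brca1-WT libraries against 25.7 and 57.6 under the Brca1-KO label. Its groups did not overlap (log2 fold change 1.36 ± 0.437, SE). Hsp90ab1 had 63.1 and 66.7 against 63.4 and 161.5 CPM, so a single library was high. Stip1 had 25.5 and 23.1 against 31.2 and 53.5. Of all 10 members, 4 had both libraries labelled Brca1-KO above both Brca1-WT libraries (Hsph1, Hspa1b, Hspa8 and Stip1), of which Hspa1b rests on 1 to 3 UMIs per library and was not tested. Of the 7 tested 3 did, where 10.6% of 11161 genes did. edgeR called 0 members and 0.0% of all genes. At an unadjusted p below 0.05, 2 members were higher, as were 1.15% of all genes. Without the first library labelled Brca1-KO, 3 were called: Hsph1 (log2 fold change 1.91, edgeR adjusted p = 0.0038), Hsp90ab1 (1.42, 0.00302) and Stip1 (1.24, 0.0297), in a fit that called 4.98% of all genes. With no filter on low counts, Hsph1 was called (edgeR adjusted p = 0.033), beside 0.183% of all genes.

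In macrophage-like nuclei, the liver's resident phagocytes among them, Hsph1 stood at 15.5 and 17.2 against 28.7 and 83.5 CPM (log2 fold change 1.90 ± 0.548, SE). Hsp90aa1 had 29.7 and 19.8 against 42.2 and 47.1, and the 2 libraries of each group lay closer together than the groups did. Hsf1 had 18.1 and 17.2 against 23.6 and 32.1 CPM, without overlap, from 13 to 30 UMIs per library. In all, 7 of the 10 members had this order, of which Hspa1a and Dnajb1 rest on 0 to 5 UMIs per library and were not tested. Of the 7 tested 5 did, where 12.0% of 8461 genes did. edgeR called 0 members and 0.0% of genes. At an unadjusted p below 0.05, 3 members were higher, as were 2.36% of all genes. Hsph1 was called with no filter on low counts (edgeR adjusted p = 0.00204), beside 0.391% of all genes. Over the fits that each left out 1 library, the log2 fold change of Hsph1 ran from 0.848 to 2.45. That of Hsp90ab1 ran from 0.272 to 1.34. The top of each range came without the first library labelled Brca1-KO, which left a single library on that side.

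In stellate or mesenchymal-like nuclei, the vitamin A-storing and matrix-producing cells, Stip1 had 16.5 and 19.6 CPM in the Brca1-WT libraries against 35.6 and 56.5 under the Brca1-KO label. Its log2 fold change was 1.41 ± 0.328 (SE), against 1.08 ± 0.333 in hepatocyte-like nuclei, and the gap between them was no larger than these standard errors. Hsph1 had 7.09 and 13.5 against 13.6 and 45.3 CPM, where the second Brca1-WT and the first library labelled Brca1-KO were level. Hsp90aa1 was close in 3 libraries, at 24.4, 22.6 and 24.1, and reached 30.5 in the fourth. Of the 10 members, 4 had both libraries labelled Brca1-KO above both Brca1-WT libraries (Hsph1, Hspa1b, Hspa8 and Stip1), of which Hspa1b rests on 0 to 3 UMIs per library and was not tested. Of the 7 tested 3 did, where 12.9% of 9721 genes did. edgeR called 0 members and 0.0% of genes, and at an unadjusted p below 0.05, 2 members were higher, as were 1.67% of all genes. With no filter on low counts, Hsph1 (edgeR adjusted p = 0.0208) and Stip1 (0.0159) were called, beside 0.156% of all genes. Without the first library labelled Brca1-KO they were called as well, Hsph1 at a log2 fold change of 2.18 and Stip1 at 1.71 (edgeR adjusted p = 2.05e-06 and 4.3e-05), beside 4.04% of all genes.

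In T or NK-like nuclei, lymphocytes, Hsph1 stood at 21.5 and 30.1 against 47.4 and 153.8 CPM, from 8 to 45 UMIs per library. Hsp90aa1 did not share this pattern, at 56.5 and 45.1 against 54.2 and 44.4 CPM. Hsph1 and Hsf1 were the 2 members with both libraries labelled Brca1-KO above both Brca1-WT libraries, both among the 7 tested, where 12.3% of 6036 genes had that order. edgeR called 0 members and 0.0% of genes, and at an unadjusted p below 0.05, 1 member was higher, as were 1.23% of all genes. Hsph1 was called with no filter (edgeR adjusted p = 0.0498, beside 0.106% of all genes) and without the first library labelled Brca1-KO (log2 fold change 2.66, edgeR adjusted p = 0.00314, beside 1.09%).

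In B-like nuclei the sums were the smallest, 146319 to 282678 UMIs per library, and 4 members passed the filter on low counts. Hsp90ab1 had 67.2 and 68.8 against 123.0 and 192.5 CPM, from 11 to 38 UMIs (log2 fold change 1.29 ± 0.403, SE). Hsph1 had 1 and 5 UMIs in the Brca1-WT libraries against 3 and 27 under the Brca1-KO label. The order was shared by 3 members (Hsp90aa1, Hsp90ab1 and Hsf1), of which Hsf1 was not tested. Of the 4 tested 2 had it, where 14.9% of 4103 genes did. edgeR called 0 members and 0.0% of genes, and at an unadjusted p below 0.05, 1 member was higher, as were 3.88% of all genes. Without the first library labelled Brca1-KO, Hsp90ab1 was called (log2 fold change 1.60, edgeR adjusted p = 0.0177), beside 2.67% of all genes. Hsph1 did not pass the filter on low counts in B-like nuclei with all 4 libraries. It passed in some fits with a library left out through the 27 UMIs of a single library, so its calls there are not read.

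**Figure D3:**
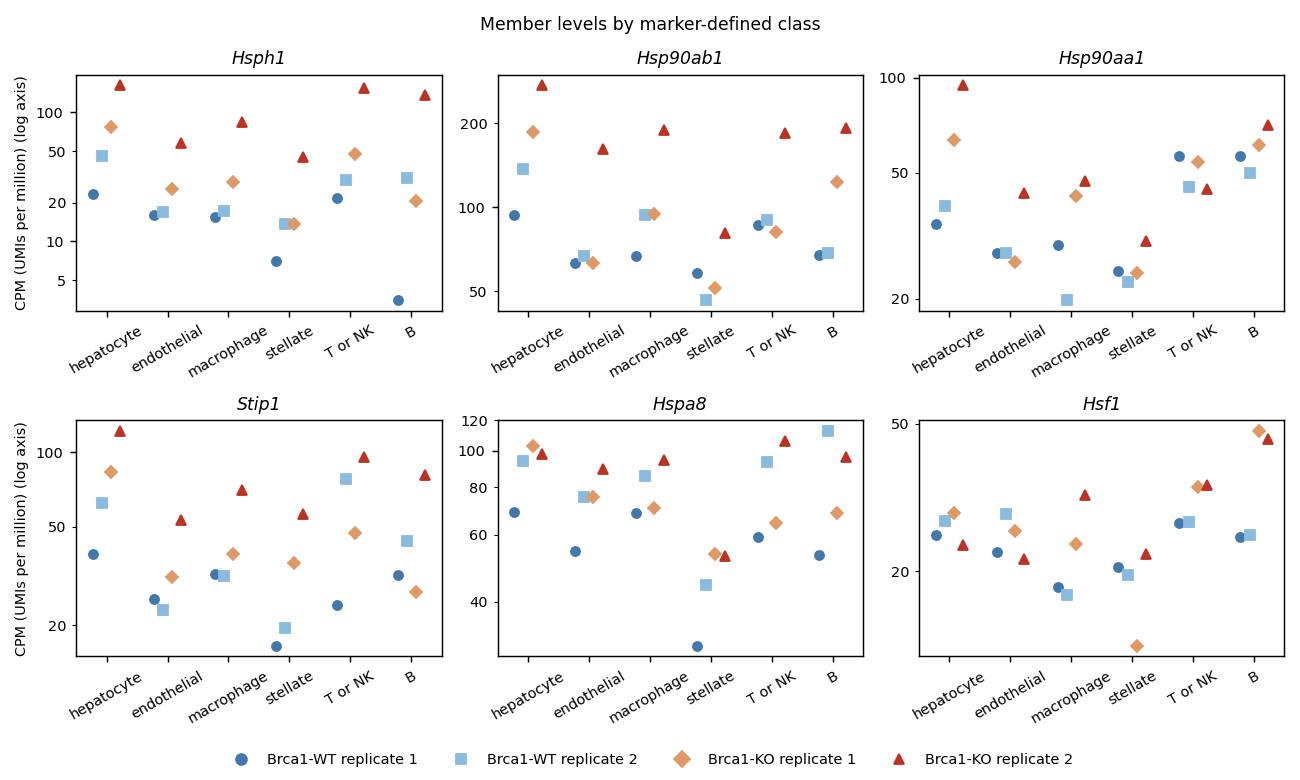
Levels of 6 members (y axis, CPM, log axis) in the 6 classes tested (x axis; stellate stands for stellate or mesenchymal-like), 1 point per library. For Hsph1, Hsp90ab1 and Stip1 the second library labelled Brca1-KO is the highest point in every class, for Hsph1 between 45.3 and 161.8. Hsf1 shows no such order. Of all genes tested, 20.1% to 28.4% by class were highest in that library.

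**Figure D4:**
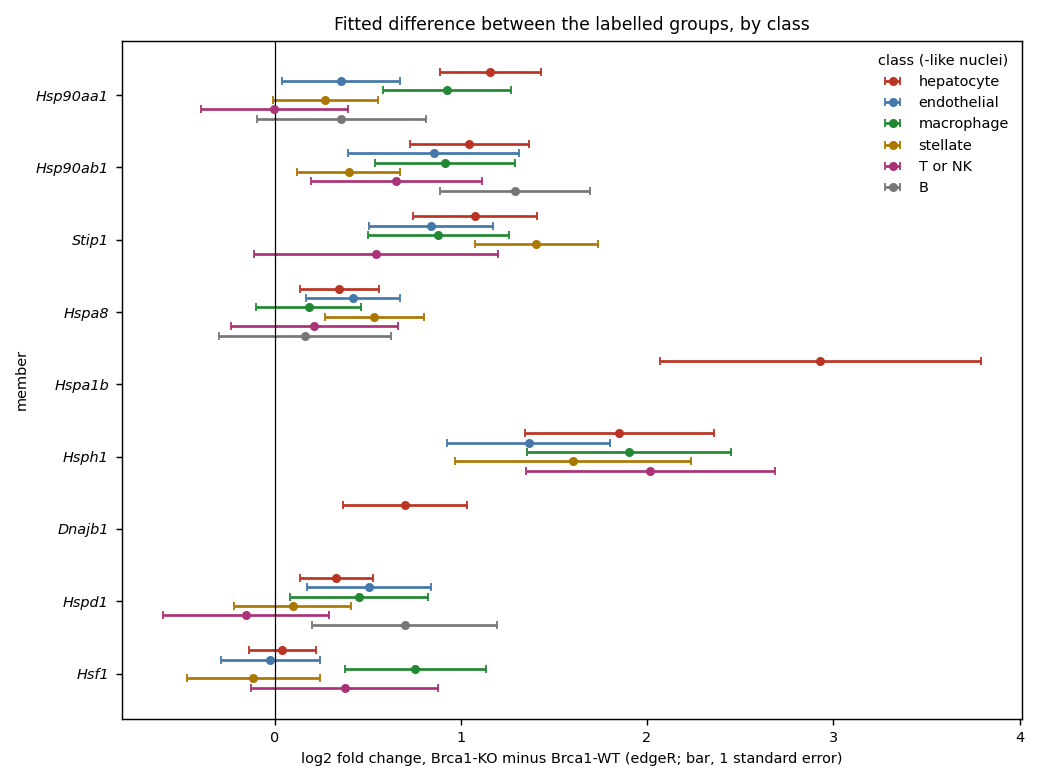
Fitted log2 fold change of each member that passed the filter on low counts (x axis; points, with bars of 1 standard error) by class (colours), as Brca1-KO minus Brca1-WT from 2 libraries each. Points of Hsph1 lie between 1.36 and 2.02 and those of Hsf1 between -0.12 and 0.76; no point passed the adjusted threshold.

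RNA released from broken hepatocytes reaches every droplet, and genes made by hepatocytes alone show how much of it the other classes carried. For 8 such genes (Alb, Apoa1, Apoa2, Apoc3, Ttr, Serpina1a, Fgb and Mup20), the median level in endothelial-like nuclei was 85.4%, 55.8%, 46.7% and 124.0% of that in hepatocyte-like nuclei of the same library. The order is Brca1-WT replicates 1 and 2, then replicates 1 and 2 labelled Brca1-KO. Hsph1 stood at 68.7%, 37.0%, 33.4% and 35.6% of its hepatocyte level, below that median in all 4 libraries. It was below the median in all 4 libraries of the macrophage-like, stellate or mesenchymal-like and B-like nuclei too, and in 2 of 4 of the T or NK-like nuclei. Hsp90ab1 was above the median in 4 of the 20 pairs of class and library, and above the highest of the 8 genes in 0 of them. By that median, the second library labelled Brca1-KO stood highest in endothelial-like, macrophage-like and B-like nuclei. In stellate or mesenchymal-like (54.8% against 54.7%) and T or NK-like nuclei (95.8% against 95.1%) it was level with the first Brca1-WT library. These percents depend on the hepatocyte level of each library. In summed CPM of the 8 genes, the second library labelled Brca1-KO was highest there as well. In the same order of libraries, the sums were 1648, 2157, 1326 and 2239 in stellate or mesenchymal-like nuclei. They were 2507, 3923, 1946 and 4340 in T or NK-like nuclei. Hsph1 was highest in that second library in each class, and the part of that RNA in the differences outside hepatocytes was not tested.

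Hsf1, Hsp90aa1 and Hspa8 differed from that picture. Hspa8 stood above the median of the 8 hepatocyte genes in 4 libraries of macrophage-like and 3 of T or NK-like nuclei. It did so in 2 libraries each of endothelial-like and stellate or mesenchymal-like nuclei, and in 1 of B-like nuclei. Hsf1 stood above the median of the 8 hepatocyte genes in 17 of 20 pairs of class and library, and in T or NK-like nuclei above the highest of them in 3 of 4 libraries. Hsp90aa1 stood at 164.0% and 115.0% of its hepatocyte level in T or NK-like nuclei of the Brca1-WT libraries, above the highest of the 8 genes in both. In those labelled Brca1-KO it was at 85.0% and 46.9%, where its hepatocyte level was larger. In B-like nuclei Hsp90aa1 stood above the highest of the 8 genes in 1 of 4 libraries, and Hsph1 did so in 0 of 4 in every class.

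Averaged over the 4 libraries, hepatocyte-like nuclei had the highest level of 5 members: Hsp90ab1, Hsph1, Hspa8, Hspd1 and Stip1. Hspd1, the chaperonin of the mitochondrial matrix, was at 84.3 ± 11.9 CPM in hepatocyte-like nuclei (SD, n = 4), at 60.1 ± 18.8 in B-like and at 44.0 ± 8.84 in T or NK-like nuclei. The first step of that order was larger than either SD and held in 4 of 4 libraries, whereas macrophage-like (36.7), stellate or mesenchymal-like (32.3) and endothelial-like nuclei (30.5) lay within 1 SD of their neighbours. Hspa8 was at 90.9 ± 15.1 CPM in hepatocyte-like nuclei and between 73.7 and 82.5 in 4 other classes, each within 1 SD of the next. Its level in stellate or mesenchymal-like nuclei, 45.3 ± 10.6, was below every other class by more than the SD. Hsp90aa1 was highest in B-like (59.8 ± 8.8), hepatocyte-like (58.0 ± 27.7) and T or NK-like nuclei (50.1 ± 6.17), each within 1 SD of the next in that order. Macrophage-like (34.7), endothelial-like (31.3) and stellate or mesenchymal-like nuclei (25.4) followed. Hsf1 ran from 35.8 ± 12.6 in B-like to 18.7 ± 4.25 in stellate or mesenchymal-like nuclei. Dnajb1 and the inducible pair had too few UMIs outside hepatocytes, at most 11 per library and class, for an order. All of these class levels are descriptions without a test, since nuclei were assigned to classes by their transcripts.

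Whether the difference between the labelled groups varied by class was tested in 1 model of all 6 classes with a term for each library, over 12630 genes. No member of the 7 in the fit passed (edgeR adjusted p = 1.0 for each), and 0.0% of all genes did, with 347 genes at an unadjusted p below 0.05. The nearest was Hsp90aa1, whose fitted log2 difference was smaller than in hepatocyte-like nuclei by 0.83 in endothelial-like, 0.83 in stellate or mesenchymal-like, 0.80 in B-like, 1.10 in T or NK-like and 0.19 in macrophage-like nuclei. For Hsph1 the fitted differences from hepatocyte-like nuclei ran from -0.58 to 0.58. A p-value that misses the threshold does not show that the classes behaved alike.

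The 55 other genes of the wider list include the remaining parts of the chaperone network, and they were less uniform. Of 52 that passed the filter in hepatocyte-like nuclei, 23 had both libraries labelled Brca1-KO above both Brca1-WT libraries and 5 had both below, against 11.9% and 19.0% of all genes. The list had a median log2 fold change of 0.16. edgeR called 0 of them, 7 were higher at an unadjusted p below 0.05 (1.02% of all genes were), and DESeq2 called 0. The group of genes known as HSF1 targets and small chaperones held 10 of those 23 among its 11 tested members, with a median of 0.52. Of 14 HSP70 partners and other HSP70 genes tested, 3 had that order and 4 the opposite, with a median of -0.004. All 8 subunits of TRiC, the cytosolic chaperonin that folds actin and tubulin, had a positive fold change, and 4 had that order (median 0.27).

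Named by smallest p in hepatocyte-like nuclei, Hspa4l, an HSP110 relative of Hsph1, stood at 13.3 and 28.0 against 49.0 and 64.0 CPM. Fkbp4, an HSP90 co-chaperone of steroid receptors, had 11.9 and 24.8 against 33.2 and 52.6. Chordc1, an HSP90-binding protein, had 50.7 and 63.0 against 74.4 and 111.7, and St13, the HSP70-interacting protein, had 110.0 and 116.2 against 144.9 and 225.1. None of these 4 passed (edgeR adjusted p = 0.995 for each), and in each the groups did not overlap. St13 was also among the 2 of smallest p in endothelial-like (67.1 and 63.9 against 91.1 and 139.9), macrophage-like (61.9 and 71.3 against 89.4 and 143.5), stellate or mesenchymal-like (61.4 and 64.7 against 86.9 and 120.3) and B-like nuclei (77.8 and 100 against 177.7 and 233.0). The others were the mitochondrial HSP90 Trap1 in endothelial-like, Chordc1 in macrophage-like, the J-domain gene Dnaja1 in stellate or mesenchymal-like and B-like, and Bag3 and Cct3 in T or NK-like nuclei. Bag3, a co-chaperone of HSP70 in autophagy, had 8.07 and 21.1 against 37.2 and 82.0 CPM in T or NK-like nuclei. None of these passed either (edgeR adjusted p from 0.59 to 1.0).

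By contrast, several genes tied to the same proteins did not share the order in hepatocyte-like nuclei. Fkbp5, an HSP90 co-chaperone that glucocorticoids induce, stood at 1502 and 1311 against 1670 and 476.4 CPM. Hspa9, the mitochondrial HSP70, was at 101.4 and 101.5 against 98.8 and 103.1, and the heat shock factor Hsf2 was at 71.0 and 83.9 against 69.8 and 104.8. These 3 genes were picked after their values were seen.

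Lists of other responses were measured beside the members in hepatocyte-like nuclei, and their part in the members' differences was not tested. Of 14 chaperones of the endoplasmic reticulum, 10 had both libraries labelled Brca1-KO above both Brca1-WT libraries (11.9% of all genes did), with a median log2 fold change of 1.23. edgeR called 0 of them. Their summed level was 1051, 592.0, 1067 and 2483 CPM, in the order Brca1-WT replicates 1 and 2 and replicates 1 and 2 labelled Brca1-KO, against 357.1, 491.5, 634.9 and 885.4 for the members. The first libraries of the 2 groups were thus level for the endoplasmic reticulum list but not for the members. Hspa5, the HSP70 of that compartment, had 100.9, 41.9, 90.2 and 283.4. Outside hepatocytes, 6 of 13 tested genes of this list were higher in each library labelled Brca1-KO in endothelial-like, 8 of 11 in macrophage-like and in stellate or mesenchymal-like, 6 of 7 in T or NK-like and 4 of 5 in B-like nuclei, where 10.6%, 12.0%, 12.9%, 12.3% and 14.9% of all genes were, in the order of these 5 classes. Of the 13 mitochondrially encoded genes, 12 stood lower in each library labelled Brca1-KO than in either Brca1-WT library (19.0% of all genes did), with sums of 1304, 1394, 848.1 and 891.3. This share of cytoplasmic RNA in nuclei ran opposite to the members in hepatocyte-like nuclei. In the same order of libraries, its sums were 5460, 4844, 3647 and 6356 in endothelial-like and 5953, 4672, 3470 and 5357 in macrophage-like nuclei. They were 4533, 3954, 3931 and 3226 in stellate or mesenchymal-like and 17750, 9312, 12020 and 17190 in T or NK-like nuclei. Of these classes, stellate or mesenchymal-like nuclei alone had both libraries labelled Brca1-KO lowest.

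Cirbp, the cold-inducible RNA-binding protein, ran opposite to the members too, at 38.2 and 32.4 against 28.4 and 18.5 CPM in hepatocyte-like nuclei. Its groups did not overlap, while Rbm3, the other cold-inducible gene listed, had 40.8 and 45.2 against 52.2 and 38.0. Cirbp was lower in each library labelled Brca1-KO than in either Brca1-WT library in all classes tested except T or NK-like nuclei. Of 16 immediate early genes tested, which rise when tissue is handled, 1 was higher in both libraries labelled Brca1-KO and 1 lower in both, with a median log2 fold change of -0.11. Of 13 clock genes, 2 were higher in both and 0 lower in both. The counts of these lists stand beside 11.9% of all genes higher in both and 19.0% lower in both. Arntl, a driver of the clock, stood at 42.6, 54.0, 74.4 and 14.4 CPM, lowest in the second library labelled Brca1-KO. It is 1 of the 13 clock genes, whose summed level was 1000, 1424, 1321 and 1219 CPM in the same order of libraries. The genes of that sum had fitted log2 fold changes of both signs, such as 1.06 for Nr1d1 and -0.602 for Cry1. The sum therefore cannot show a difference in time of day, which was not tested.

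The genes whose pattern over the 24 sums of library and class was most like that of the members were Cdh18, Sgms2, Il1rap, St13, Gclc and Ugp2. The measure was Pearson's r with the average of the 4 members present in all 6 tests (Hsp90aa1, Hsp90ab1, Hspa8 and Hspd1), after centring each class, among 3537 candidate genes. It ran from 0.88 for Cdh18, a cadherin, to 0.86 for Ugp2, an enzyme of glycogen synthesis, and it carries no test, since the classes of a library share its depth and its hepatocyte RNA. St13 alone of the 6 is on the chaperone list. In hepatocyte-like nuclei, Gclc, an enzyme of glutathione synthesis, stood at 218.5 and 385.6 against 275.5 and 837.5 CPM. Its groups overlapped, unlike those of 9 of the 10 members.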

How the data were processed

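Per the file headers, the deposited values were raw counts of UMIs per gene and barcode from 4 single-nucleus libraries, for which the file headers name Cell Ranger 6.0.0. The submitters' processing notes name GRCh38, a human build, while the gene identifiers are mouse; the mouse build, and whether intronic reads or strand were used, are not stated there. Nuclei with at least 500 genes and at most 5% mitochondrial UMIs were kept, and doublets called by Scrublet in scanpy 1.11.5 (2.99% to 11.3% per library) were removed. Clustering used 2000 variable genes without the 65 chaperone genes, 30 principal components, 15 neighbours and Leiden resolution 1, with no batch correction. It gave 20 clusters, 3 of them unnamed. Clusters were called "like" a class from marker genes.

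UMIs were summed per library and class. Sums with at least 30 nuclei in every library were compared with edgeR 4.0.16 (TMM scaling, filterByExpr, robust glmQLFit) as Brca1-KO minus Brca1-WT, with no block, at an adjusted p threshold of 0.05. The scripts were tested on simulated data. Same-numbered libraries had deviations correlated from -0.11 to 0.23 over the sums, so the numbers were not read as pairs. Alternatives included DESeq2 1.42.0. The members and lists were chosen with earlier results of these data known. All 10 members are named, with 4 wider-list genes of smallest p in hepatocyte-like nuclei and 2 in each other class, and the 6 genes of most similar pattern.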

Additional observations from a re-analysis of the deposited data

How the results depend on the processing

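With 2 libraries against 2, the fits turned on which library was left out. Over the 4 fits that each left out 1 library, the number of members called by edgeR ran from 0 to 3 in endothelial-like, 0 to 2 in macrophage-like, stellate or mesenchymal-like and B-like nuclei and in the sum of all nuclei, and 0 to 1 in T or NK-like nuclei; in hepatocyte-like nuclei it was 0 in each. All but 1 of these fits with a call left out the first library labelled Brca1-KO, and the other, in B-like nuclei, left out the second Brca1-WT library. In B-like nuclei 1 call in each of these fits was Hsph1, which passed the filter only through 1 high library. With no filter on low counts, 1 member was called in endothelial-like, macrophage-like and T or NK-like nuclei each, and 2 in stellate or mesenchymal-like nuclei. With nuclei thinned to 1000 UMIs, the members with both libraries labelled Brca1-KO above both Brca1-WT libraries numbered 2 in place of 4 in endothelial-like and in stellate or mesenchymal-like nuclei and 1 in place of 2 in T or NK-like nuclei. DESeq2 called 10 genes in hepatocyte-like nuclei and 21 in the sum of all nuclei, none of them a member, and the cause was not tested.

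The replicate block called 0 members in every class, and in hepatocyte-like nuclei gave Hsph1 a log2 fold change of 1.82. The crossed block and the sums of shared or added hepatocyte clusters were chosen after seeing the data and called 0 members too. Of 674 fold changes of members under alternatives, 29 changed sign, each of a difference that was not called. For Hsf1 in hepatocyte-like nuclei they were -0.00037 with library totals, -0.112 with thinned nuclei, -0.082 in the shared clusters and -0.061 to 0.147 over the libraries left out. In endothelial-like nuclei Hsf1 gave 0.241 with doublets kept, 0.082 at a mitochondrial limit of 1% and -0.198 to 0.163 over libraries left out, and in stellate or mesenchymal-like nuclei -0.636 to 0.222. Hsp90aa1 gave -0.051 to 0.734 over libraries left out in endothelial-like nuclei. In T or NK-like nuclei Hsp90aa1 gave 0.001 with the replicate block, 0.003 with the crossed block, 0.29 with doublets kept and -0.118 to 0.13 over libraries left out. There the libraries left out also gave -0.121 to 1.16 for Hsp90ab1, -0.246 to 0.609 for Hspa8 (-0.155 at the 1% limit), -0.477 to 0.118 for Hspd1 and -0.113 to 1.637 for Stip1. Hspa8 gave -0.081 to 0.398 in macrophage-like and -0.365 to 0.704 in B-like nuclei, and Hspd1 -0.314 to 0.395 in stellate or mesenchymal-like nuclei. B-like nuclei were not named at resolution 0.5, so that alternative gave no value there, and no block was added to the model across classes, which already holds a term for each library.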

Other observations

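The classes with under 30 nuclei in some library were not tested. In dendritic-like nuclei, antigen-presenting cells, Hsp90ab1 had 5 and 1 UMIs in the Brca1-WT libraries against 8 and 10 under the Brca1-KO label, and Hsph1 had 1, 1, 2 and 4. Hsp90aa1 went the other way there, with 8 and 2 UMIs against 3 and 1, or 73.8 and 40.5 against 33.6 and 17.1 CPM. In neutrophil-like nuclei Hsp90ab1 had 7, 5, 4 and 19 UMIs and Stip1 had 4, 2, 5 and 10, in the same order. In plasma-like nuclei Hsp90aa1 had 6, 1, 1 and 1. Hspa1a was counted at 0 in all 3 classes.

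None of the 65 chaperone genes was among the 2000 variable genes when they were kept in the choice. The second library labelled Brca1-KO was the highest of the 4 for 7 of the 10 members in hepatocyte-like nuclei, and for 23.3% of all genes tested there. The largest hepatocyte-like cluster of that library, cluster 6, had 41.0% of its hepatocyte-like nuclei and was led by Hsd17b6, Chrm3 and Serpina1e among named genes. Cluster 17 had 39.9% of them. Cluster 6 held 0.0389% to 1.28% of those of the other 3 libraries, and cluster 17 held 0.0% to 0.681%.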
